A study of Mus musculus with 28 samples.

Results

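*Tmprss4* and *Dnah1* are 2 of the 21935 genes in a table of read counts from the livers of leptin-deficient mice with diet-induced nonalcoholic steatohepatitis (NASH). They were found in the table by their Ensembl gene identifiers, ENSMUSG00000032091 for *Tmprss4* and ENSMUSG00000019027 for *Dnah1*. The pair was chosen by its measured levels in these same mice, which stepped up from vehicle to OCA to INT-787, so the 3 group differences of both genes are given as a description, with standard errors and without a test. Mice carried the B6.V-Lepob/JRj genotype and were males that arrived at an age of 5 weeks. The AMLN diet, high in fat, fructose and cholesterol, was given over 14 weeks before dosing began and during it. Dosing by mouth once daily for 2 weeks followed, with carboxymethylcellulose vehicle, OCA at 30 mg/kg or INT-787 at 30 mg/kg. The authors assigned 10 mice to each group, and libraries of 10 vehicle, 9 OCA and 9 INT-787 mice were available. OCA (obeticholic acid) and INT-787 are both agonists of the farnesoid X receptor (FXR). The genotype and the diet were shared by all 3 groups, so neither was compared with lean or healthy mice, and obesity in these animals stems from the lack of leptin as well as from the diet.

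Each mouse gave 1 library of polyadenylated liver RNA. Total counts ranged from 1009593 to 18342272 in the vehicle mice, from 10990531 to 22421506 in the OCA mice and from 12513715 to 22128216 in the INT-787 mice. Vehicle replicate 6 was the shallow library, and the next vehicle mouse had 9313260 counts. Levels are given as CPM, the counts of a gene scaled to a common library total, with totals adjusted by the trimmed mean of M values (TMM). A count of 3, taken here as the floor of detection, was worth 2.76 CPM in vehicle replicate 6 and at most 0.328 CPM in the other mice. The labels name liver, and hepatocyte markers such as *Alb* were abundant in all groups.

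*Tmprss4* encodes a type II transmembrane serine protease, an enzyme anchored in the plasma membrane with its catalytic domain outside the cell. It is expressed in several epithelia, is known from carcinoma cells, and can cleave the epithelial sodium channel and pro-urokinase. *Dnah1* encodes a dynein heavy chain of the inner arm of the axoneme, the motor assembly that bends motile cilia and sperm tails. Hepatocytes carry neither, and cholangiocytes, the cells of the bile ducts, carry an immotile primary cilium. FXR is a nuclear receptor for bile acids that binds DNA with the retinoid X receptor, classically at inverted repeats of a hormone-receptor half-site, and in liver it induces genes such as *Nr0b2* and *Slc51b*.

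On GRCm38, the genome build of the counts, *Tmprss4* lies on chromosome 9 from 45172726 to 45204092 on the minus strand, with 13 exons after merging transcripts and 2589 exonic bases. *Dnah1* lies on chromosome 14 from 31260375 to 31323896, also on the minus strand, with 78 merged exons and 13043 exonic bases. Both genes stepped up with both FXR agonists, but the promoter sequences used here held no entry for *Tmprss4*. Only the promoter of *Dnah1* is therefore shown, and its letters can be read against the FXR element. The 250 bases before its RefSeq start on GRCm38.p6, chr14:31323897-31324146 on the minus strand, are printed with the only match to the searched motifs, a GC box, in capitals.
Dnah1 promoter: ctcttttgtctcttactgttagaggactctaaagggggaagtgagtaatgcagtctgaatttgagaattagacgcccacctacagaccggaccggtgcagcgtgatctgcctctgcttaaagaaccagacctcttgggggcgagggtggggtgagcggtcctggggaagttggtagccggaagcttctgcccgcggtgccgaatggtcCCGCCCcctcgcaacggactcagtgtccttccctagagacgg
The stretch was 57.6% G and C with 14 CpG dinucleotides. Motifs were searched on both strands. The window held no match to AGGTCANTGACCT, the inverted repeat with a single base between its arms, which 0.00609% of 32851 RefSeq promoter windows of the same length held. It also held no match to the half-sites AGGTCA (14.02% of windows) and AGTTCA (11.8%), and none to TATAAA (12.4%). The inverted repeat contains the half-site AGGTCA. The GC box GGGCGG was matched once, on the opposite strand, with its leftmost base 42 bases before the start, and 32.7% of windows held it. A window of this length does not cover distal elements.

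*Tmprss4* was low in vehicle livers and higher with each agonist. Its level in the vehicle mice was 0.919 CPM at the lowest, 2.16 CPM at the median and 3.23 CPM at the highest, with a mean of 2.03 ± 0.701 CPM (SD, n = 10). In the OCA mice the lowest, median and highest levels were 4.16, 7.50 and 15.9 CPM, with a mean of 7.82 ± 3.96 CPM (SD, n = 9). In the INT-787 mice they were 15.9, 27.1 and 38.3 CPM, with a mean of 25.7 ± 7.84 CPM (SD, n = 9). These levels rest on 1 to 61 reads per vehicle mouse, 45 to 256 per OCA mouse and 220 to 549 per INT-787 mouse, so the vehicle level is the least precise. All OCA mice lay above all vehicle mice, and the INT-787 mice began where the OCA mice ended.

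The steps of *Tmprss4* between groups were of similar size on the log2 scale. The log2 fold change was 1.88 (SE 0.25) for OCA against vehicle, a 3.69-fold difference, and ranked 15th from the highest among 12580 tested genes. It was 1.70 (SE 0.22) for INT-787 against OCA at the same dose, a 3.26-fold difference, and ranked 9th. Over the whole range, INT-787 against vehicle, it was 3.59 (SE 0.25), a 12.01-fold difference, and ranked 8th. The step from vehicle to OCA made up 52.5% of the whole log2 distance.

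*Dnah1* followed the same order at lower counts. The lowest, median and highest levels in the vehicle mice were 0.538, 1.07 and 1.88 CPM, with a mean of 1.17 ± 0.440 CPM (SD, n = 10). The OCA mice spanned 2.07, 4.99 and 7.94 CPM in the same order, with a mean of 4.65 ± 1.82 CPM (SD, n = 9). The INT-787 mice spanned 8.39, 9.99 and 11.4 CPM, with a mean of 10.1 ± 0.855 CPM (SD, n = 9). The INT-787 mice sat in a narrow band above the other 2 groups, while the OCA mice were spread out between them. Reads per mouse numbered 2 to 23 with vehicle, 25 to 128 with OCA and 116 to 220 with INT-787.

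For *Dnah1* the first step was the larger of the 2. The log2 fold change was 2.11 (SE 0.21) for OCA against vehicle, a 4.32-fold difference ranked 8th of the tested genes. It was 1.12 (SE 0.18) for INT-787 against OCA, a 2.17-fold difference ranked 33rd, and 3.23 (SE 0.21) for INT-787 against vehicle, a 9.37-fold difference ranked 12th. The first step made up 65.4% of the log2 distance. As a background for these ranks, edgeR's quasi-likelihood test at an adjusted p of at most 0.05 called 10.2% of tested genes up and 9.48% down for INT-787 against vehicle. It called 4.15% up and 2.45% down for OCA against vehicle, and 2.19% up and 3.19% down for the 2 agonists compared, INT-787 over OCA. In bulk liver RNA, more cells of a type and more RNA per cell cannot be told apart.

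**Figure D1:**
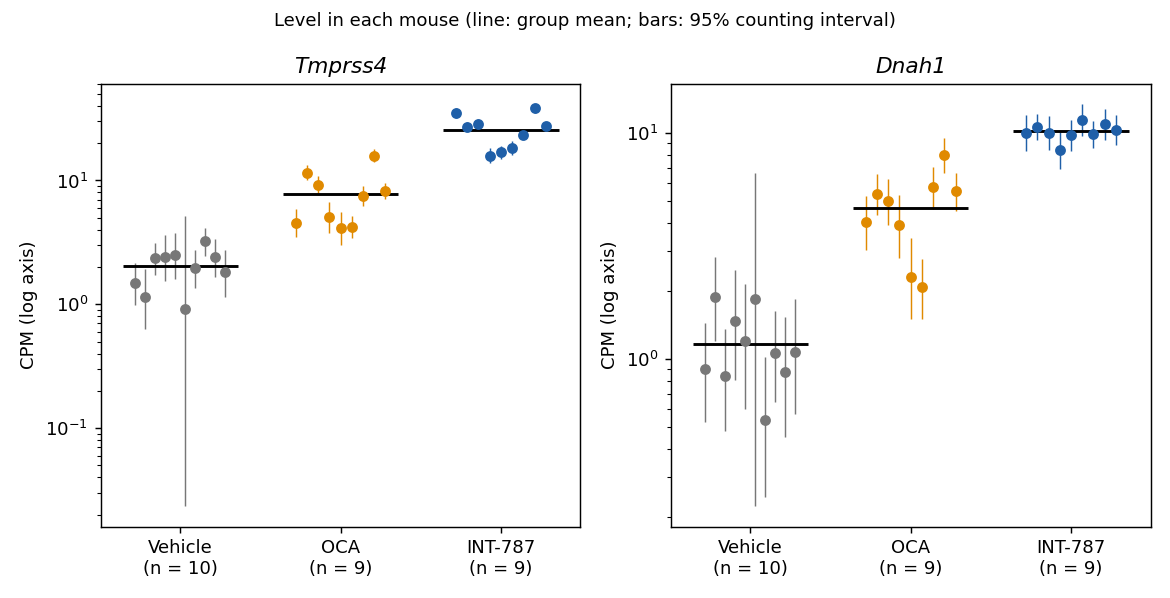
Level of Tmprss4 (left) and Dnah1 (right) in CPM on a log axis, 1 point per mouse, for vehicle (n = 10), OCA (n = 9) and INT-787 (n = 9). Horizontal lines are group means and vertical bars are 95% exact binomial intervals of the count. The groups step upward from vehicle to OCA to INT-787, with Tmprss4 means of 2.03, 7.82 and 25.7 CPM and Dnah1 means of 1.17, 4.65 and 10.1 CPM, and the long bar marks the shallow vehicle library.

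Mouse by mouse, both genes kept the order of the groups in every pair. For each gene, 90 of 90 pairs of an OCA and a vehicle mouse, 90 of 90 pairs of an INT-787 and a vehicle mouse and 81 of 81 pairs of an INT-787 and an OCA mouse were in order. Full separation of INT-787 above vehicle was seen in 1.79% of tested genes, of OCA above vehicle in 0.604% and of INT-787 above OCA in 0.199%. Because the genes were chosen for this order, nothing is read from the difference between those shares and the pair. Means in the order vehicle, OCA, INT-787 were common, at 25.2% of tested genes, while 0.525% were called higher in all 3 comparisons.

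The separation of INT-787 from OCA rested on a margin smaller than the counting error. The lowest INT-787 mouse for *Tmprss4*, replicate 4, had 15.9041 CPM (220 reads, 95% exact binomial interval 13.9 to 18.1), and the highest OCA mouse, replicate 8, had 15.8839 CPM (256 reads, interval 13.99 to 17.9). These mice were level at this depth. For *Dnah1* the same pair of mice met at 8.39 CPM (interval 6.93 to 10.1) for INT-787 replicate 4 and 7.94 CPM (interval 6.62 to 9.44) for OCA replicate 8. With library totals in place of TMM scaling, OCA replicate 8 passed INT-787 replicate 4 for *Tmprss4*, at 17.1 against 14.9 CPM, and for *Dnah1*, at 8.56 against 7.85 CPM. The pairs in order were then 79 of 81 for *Tmprss4* and 80 of 81 for *Dnah1*. Intervals cover counting error only.

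At the border of OCA and vehicle, neighbouring mice also overlapped within counting error for both genes. The lowest OCA mouse for *Tmprss4*, replicate 5, had 4.16 CPM (interval 3.03 to 5.56), and the highest vehicle mouse, replicate 8, had 3.23 CPM (interval 2.47 to 4.14). For *Dnah1*, OCA replicate 6 had 2.07 CPM (interval 1.51 to 2.77) and vehicle replicate 2 had 1.88 CPM (interval 1.19 to 2.83). The shallow vehicle replicate 6 held 1 read of *Tmprss4* (0.919 CPM, interval 0.0233 to 5.12) and 2 reads of *Dnah1* (1.84 CPM, interval 0.223 to 6.64), and so its place in the order is not determined. Without vehicle replicates 5 and 6, all 72 pairs of an OCA and a vehicle mouse and all 72 pairs of an INT-787 and a vehicle mouse were in order for both genes.

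The spread between mice of 1 group differed from group to group. The coefficient of variation of *Tmprss4* was 34.6% in vehicle, 50.7% in OCA and 30.5% in INT-787 mice, and that of *Dnah1* was 37.7%, 39.1% and 8.44%. Counting error alone would give 36.6%, 10.5% and 5.27% for *Tmprss4* and 33.9%, 13.2% and 8.07% for *Dnah1*. The vehicle values rest on the shallow replicate 6, and without it counting would give 19.4% for *Tmprss4* (observed 28.8%) and 26.8% for *Dnah1* (observed 36.002%). The differences in spread were not tested. The log2 ratio of *Tmprss4* to *Dnah1*, on CPM plus 0.5, was 0.59 ± 0.70 in vehicle, 0.65 ± 0.31 in OCA and 1.25 ± 0.40 in INT-787 mice (SD, n = 10, 9 and 9).

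OCA replicate 8 was the highest OCA mouse for both genes, and it stood apart in some sums of cell type markers. Summed over 6 cholangiocyte markers it had 224 CPM, above the 73.6 to 141 CPM of the other OCA mice, and summed over 5 stellate cell markers it had 1680 CPM, above their 645 to 1125 CPM. Its sum over 5 macrophage markers, 653 CPM, was also above theirs, 272 to 582 CPM. The stellate cell sum includes *Col1a1*, with a mean of 520 CPM over the OCA mice. Its sums over hepatocyte, endothelial, and intestinal and pancreatic markers were 124390, 156 and 142 CPM. Each lay within the range of the other OCA mice, 104176 to 196179, 122 to 193 and 115 to 220 CPM. Its lymphocyte sum, 4.28 CPM, was level with their highest, 4.27 CPM. The part of these cell types in its *Tmprss4* and *Dnah1* levels was not tested. Without it, the log2 fold change of OCA against vehicle was 1.68 for *Tmprss4* and 1.98 for *Dnah1*, and that of INT-787 against OCA was 1.90 and 1.25.

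Within the OCA mice, *Tmprss4* and *Dnah1* were high in the same animals. Pearson's r of their log2 levels was 0.878 over the 9 OCA mice (exact permutation test, two-sided p = 0.00157, adjusted p = 0.0236 over 15 relations), and Spearman's rho was 0.817 (exact permutation p = 0.0108, adjusted p = 0.162). Without the 2 mice farthest from the median of *Tmprss4*, r was 0.779. Without OCA replicate 8 it was 0.823, and the adjusted exact permutation p was then 0.133. In the vehicle mice r was -0.51 (permutation p = 0.135, adjusted p = 0.674), with 0.323 once the 2 farthest mice were left out. In the INT-787 mice r was 0.441 (exact permutation p = 0.240, adjusted p = 0.719), with -0.31 without the 2 farthest mice, so neither relation held. The difference in r between groups was not tested.

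**Figure D2:**
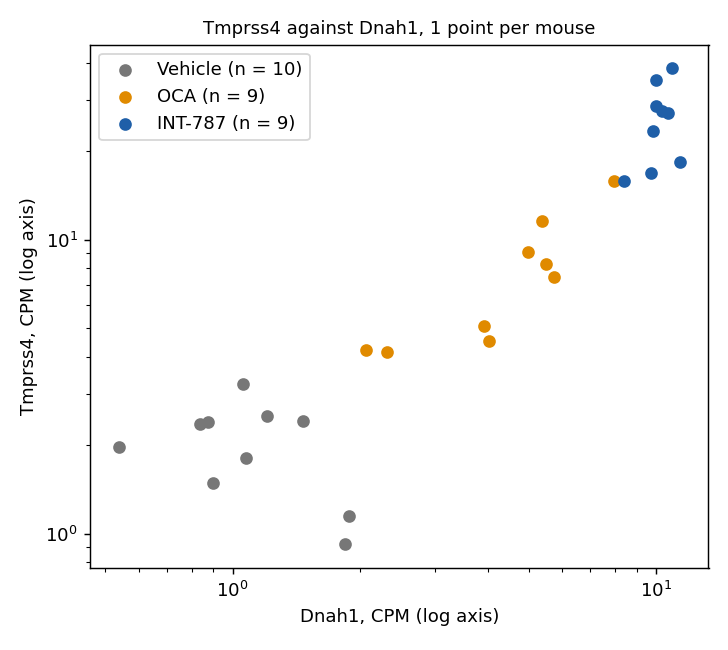
Tmprss4 against Dnah1 in CPM, both on log axes, 1 point per mouse, for vehicle (n = 10), OCA (n = 9) and INT-787 (n = 9). OCA mice spread along a rising band (r = 0.878 within OCA), the highest of them lies beside the lowest INT-787 mouse, and vehicle mice show no such band (r = -0.51).

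The other 12 relations were those of each gene with *Nr0b2*, which encodes the repressor SHP, and *Slc51b*, which encodes the beta subunit of the basolateral bile acid exporter, within each group. Their r ranged from -0.27 for *Tmprss4* and *Nr0b2* in vehicle to 0.570 for *Dnah1* and *Slc51b* in OCA, and none had an adjusted permutation p of at most 0.05. In the OCA mice some of these values moved when mice were left out. Without OCA replicate 8, the r of *Dnah1* and *Nr0b2* went from 0.452 to 0.866 (adjusted p = 0.176, exact permutation), that of *Tmprss4* and *Nr0b2* from 0.140 to 0.565 (adjusted p = 0.5996, exact permutation) and that of *Tmprss4* and *Slc51b* from 0.345 to 0.142 (adjusted p = 0.912, exact permutation). That of *Dnah1* and *Slc51b* went from 0.570 to 0.468 without the same mouse (adjusted p = 0.5996, exact permutation). Without the 2 mice farthest from the median of *Dnah1*, the r of *Dnah1* and *Nr0b2* was -0.77. With 9 or 10 mice per group, a moderate correlation could not be told from none.

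The textbook FXR-induced genes of liver give the scale of the response in the same livers. Among 9 tested genes of 11, 7 rose with INT-787 against vehicle and 1, *Pltp*, fell, where 19.6% of all tested genes changed in either direction. With OCA against vehicle 3 rose, where 6.6% of all genes changed, and with INT-787 against OCA 1 rose, where 5.38% changed. The median log2 fold change over the 9 was 0.40, 0.20 and 0.32 in these comparisons, and that of all tested genes was 0.00, 0.02 and -0.01. *Slc27a5*, at 0.27 with OCA (adjusted p = 0.187), passed as higher without OCA replicate 8 (0.36, adjusted p = 0.0215). *Pltp*, at -0.40 with OCA (adjusted p = 0.0844), passed as lower with DESeq2 (adjusted p = 0.0462) and without OCA replicate 2 or vehicle replicate 1 (0.0319 and 0.0489). *Baat*, at 0.24 with INT-787 (adjusted p = 0.0632), passed with the replicate number as a block and without any of INT-787 replicates 1 and 2, OCA replicate 8 or vehicle replicate 10 (adjusted p of 0.0205 to 0.0448).

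*Slc51b* rose by a log2 fold change of 3.31 (SE 0.23, adjusted p = 1.4e-12, edgeR) with INT-787 and 2.68 (SE 0.23, adjusted p = 5.78e-10) with OCA. *Nr0b2* rose by 1.62 (SE 0.19, adjusted p = 2.03e-07) and 1.17 (SE 0.19, adjusted p = 0.000104). *Abcb11*, the bile salt export pump, rose by 1.70 (SE 0.14) with INT-787 and 1.19 (SE 0.14) with OCA, and it was the listed gene that also passed between the agonists, by 0.50 (SE 0.14, adjusted p = 0.0307). That last call was lost when any of INT-787 replicates 1, 5 and 7 or OCA replicates 5, 6 and 8 was left out, with an adjusted p of up to 0.0741. The difference between agonists of *Slc51b*, 0.63 (SE 0.20), had an adjusted p of 0.0517. It passed with DESeq2 (adjusted p = 0.0299), with DESeq2 size factors (0.0466), with the replicate number as a block (0.00761), with sets of neighbouring sample numbers as a block (0.00189), and without INT-787 replicate 2, any of OCA replicates 7, 8 and 9 or any of vehicle replicates 3, 5 and 10 (0.0124 to 0.0493). That of *Abcb4*, 0.32 (adjusted p = 0.0589), passed with DESeq2, with the replicate number as a block and without any of INT-787 replicates 8 and 9, OCA replicates 1 and 3 or vehicle replicate 10 (adjusted p of 0.0255 to 0.0482). *Abcb4*, *Abcc2*, *Slc27a5* and *Sdc1*, which serve phospholipid export, conjugate export, bile acid conjugation and the cell-surface matrix, rose with INT-787 by 0.33 to 0.61. The call of *Abcc2* was lost without INT-787 replicate 3 or any of vehicle replicates 5, 9 and 10 (adjusted p of up to 0.0658), and also with the replicate number as a block, with upper-quartile factors and without vehicle replicates 5 and 6 (up to 0.0675). That of *Sdc1* was lost without INT-787 replicate 4 or 6 (up to 0.0615) and with upper-quartile factors (0.058). The step between the agonists was 1.70 (SE 0.22) for *Tmprss4* and 1.12 (SE 0.18) for *Dnah1*, and the difference from the steps of the listed genes was not tested.

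*Tmprss4* belongs to a family of which mouse liver uses few members. Of 19 other type II transmembrane serine proteases in the table, 5 passed the filter on low counts, 6 had no read in any mouse, and the highest mean among those filtered out was 0.126 CPM. Per exon length, as RPKM, the CPM divided by the exon length in kilobases, *Tmprss6*, the hepatic regulator of iron uptake, and *Hpn*, hepsin, led the family in vehicle mice with 127 and 66.0 RPKM. *Tmprss4* was 5th of 20 in vehicle mice at 0.782 RPKM, behind *St14* (matriptase) at 1.69 and *Tmprss2* at 0.877. It was 3rd of 20 with OCA at 3.02 RPKM and 3rd with INT-787 at 9.92 RPKM, ahead of *St14* at 1.96 and 1.46 RPKM.

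Against vehicle, the 5 tested relatives of *Tmprss4* had log2 fold changes from -1.03 to 0.39. With INT-787 against vehicle, 1 of the 5 rose, *Hpn*, by a log2 fold change of 0.39 (SE 0.10, adjusted p = 0.00561), where 19.6% of all tested genes passed. With OCA against vehicle none of the 5 passed edgeR's test, 1 having an unadjusted p under 0.05, where 6.6% of all tested genes passed. *Corin*, a convertase of natriuretic peptides, was at 1.97 ± 1.01 CPM in vehicle, 1.01 ± 0.318 in OCA and 2.44 ± 1.33 in INT-787 mice. It was higher with INT-787 than with OCA by 1.28 (SE 0.33, adjusted p = 0.0178), and its difference between OCA and vehicle, -1.03 (SE 0.33), had an adjusted p of 0.0553. With DESeq2 in place of edgeR, *Corin* passed as lower with OCA (adjusted p = 0.0262), and it also passed in edgeR without any of INT-787 replicates 1, 7 and 8, OCA replicate 5 or vehicle replicates 9 and 10, with an adjusted p down to 0.0144. The median log2 fold change over the 5 was 0.10 with INT-787 and 0.19 with OCA, each against vehicle, and 0.15 between the agonists.

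Among 14 inhibitors, partners and substrates of membrane serine proteases, 11 were tested and 6 passed with INT-787 against vehicle, 3 in each direction, where 10.2% of all tested genes rose and 9.48% fell, with a median of -0.28. *Scnn1a*, the alpha subunit of the epithelial sodium channel, rose by 1.01 (SE 0.15, adjusted p = 7.51e-06) with INT-787 and 0.86 (SE 0.15, adjusted p = 0.000216) with OCA, from 5.55 ± 1.23 CPM in vehicle mice. *Prss8*, prostasin, which also acts on that channel, fell by 0.66 (SE 0.13, adjusted p = 0.000352) with INT-787 and by 0.95 (SE 0.13, adjusted p = 6.26e-06) with OCA. These 2 of the 11 passed with OCA in edgeR's test, where 6.6% of all tested genes passed and the median was 0.08. With the replicate number as a block, *Mst1* also passed with OCA (0.24, adjusted p = 0.0429). *F2rl1*, a receptor activated by such proteases, differed by -0.50 (SE 0.19, adjusted p = 0.121) with OCA, and by -0.71 without OCA replicate 8 (adjusted p = 0.00486). With INT-787 it differed by -0.42 (adjusted p = 0.114), and passed without that mouse and with only the 2 groups compared (adjusted p of 0.0491 and 0.0422). *Plaur*, the urokinase receptor, differed by -0.65 with INT-787 (adjusted p = 0.0604), and passed with DESeq2, either block, upper-quartile factors or without INT-787 replicate 2 or 5 (adjusted p of 0.023 to 0.0411).

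*Plau*, urokinase, fell by 0.77 (SE 0.20, adjusted p = 0.00513) with INT-787. *Mst1*, macrophage-stimulating protein, rose by 0.48 (SE 0.09, adjusted p = 9.3e-05), and *Hgfac*, the activator of hepatocyte growth factor, rose by 0.40 (SE 0.12, adjusted p = 0.0191). *Spint1* and *Spint2*, the Kunitz inhibitors of this protease class, differed by -0.28 and 0.26 with INT-787, with adjusted p of 0.397 and 0.132. *Spint2* passed without vehicle replicate 10 (0.38, adjusted p = 0.00453), with the replicate number as a block (0.37, adjusted p = 0.00389) and with sets of neighbouring sample numbers as a block (0.29, adjusted p = 0.0414). With OCA it passed with the replicate number as a block (0.29, adjusted p = 0.0449). None of the 11 passed edgeR's test between the agonists, where 5.38% of all tested genes passed. Of the 11, 6 had an unadjusted p under 0.05 and the median was 0.08. DESeq2 called 1, *Mst1* (adjusted p = 0.0354), and leaving out OCA replicate 3 gave 3, INT-787 replicate 5 gave 2, and INT-787 replicate 2 or OCA replicate 2 gave 1.

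Most other members of the family of *Dnah1* had few reads in these livers. Of 16 other dynein heavy chains, 4 passed the filter, and the highest mean among those filtered out was 0.303 CPM. The reads of *Dnah7a*, *Dnah7b* and *Dnah7c*, near-identical copies, are uncertain. Per exon length *Dnah1* was 3rd of 17 in vehicle mice at 0.0895 RPKM, after *Dync1h1*, the heavy chain of cytoplasmic dynein, at 13.3 RPKM and *Dync2h1*, that of the intraflagellar transport motor, at 0.169 RPKM. It was 2nd with OCA at 0.357 RPKM and 2nd with INT-787 at 0.777 RPKM. Per length it stayed below *Tmprss4* in all 3 groups.

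None of the 4 tested dynein chains passed edgeR's test in any comparison, where 19.6% of all tested genes passed for INT-787 against vehicle, 6.6% for OCA against vehicle and 5.38% between the agonists. Among the 4, an unadjusted p under 0.05 was seen for 2 with INT-787 and 1 with OCA, each against vehicle, and for 0 between the agonists. The axonemal chains *Dnah5* and *Dnah8* had log2 fold changes of 0.79 (SE 0.34, adjusted p = 0.0983) and 0.73 (SE 0.28, adjusted p = 0.0612) with INT-787, at 0.504 ± 0.511 and 0.524 ± 0.215 CPM in vehicle mice. *Dnah8* reached an adjusted p of 0.033 or 0.0499 when replicate 1 or 6 of the INT-787 mice was left out, and 0.0387 without vehicle replicate 9. *Dync1h1* and *Dync2h1* differed by -0.02 (SE 0.13) and 0.00 (SE 0.21). The median over the 4 was 0.37, 0.34 and 0.12 in the 3 comparisons.

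Most other genes of the axoneme and of motile cilia did not pass the filter on low counts. Of 33 such genes, 11 were tested, with median log2 fold changes of -0.23 for INT-787 and -0.05 for OCA, each against vehicle, and -0.30 between the agonists. Against vehicle 1 of the 11 passed with each compound, where 19.6% of all tested genes passed with INT-787 and 6.6% with OCA. This was *Drc1*, a subunit of the nexin link between microtubule doublets, at 0.696 ± 0.327 CPM in vehicle, 1.93 ± 0.818 in OCA and 1.53 ± 0.499 in INT-787 mice. It rose by 1.12 (SE 0.28, adjusted p = 0.0045) with INT-787 and 1.47 (SE 0.28, adjusted p = 0.000529) with OCA. Its mean was higher with OCA than with INT-787, by a difference that did not pass (-0.35, SE 0.26, adjusted p = 0.514). Between the agonists 0 of the 11 passed edgeR's test, where 5.38% of all tested genes did, with 1 at an unadjusted p under 0.05. *Foxj1*, the transcription factor of motile ciliogenesis, was at 4.25 ± 1.53 CPM in vehicle mice and differed by -0.40 (SE 0.30, adjusted p = 0.392) with INT-787 and 0.11 (SE 0.30, adjusted p = 0.906) with OCA.

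**Figure D3:**
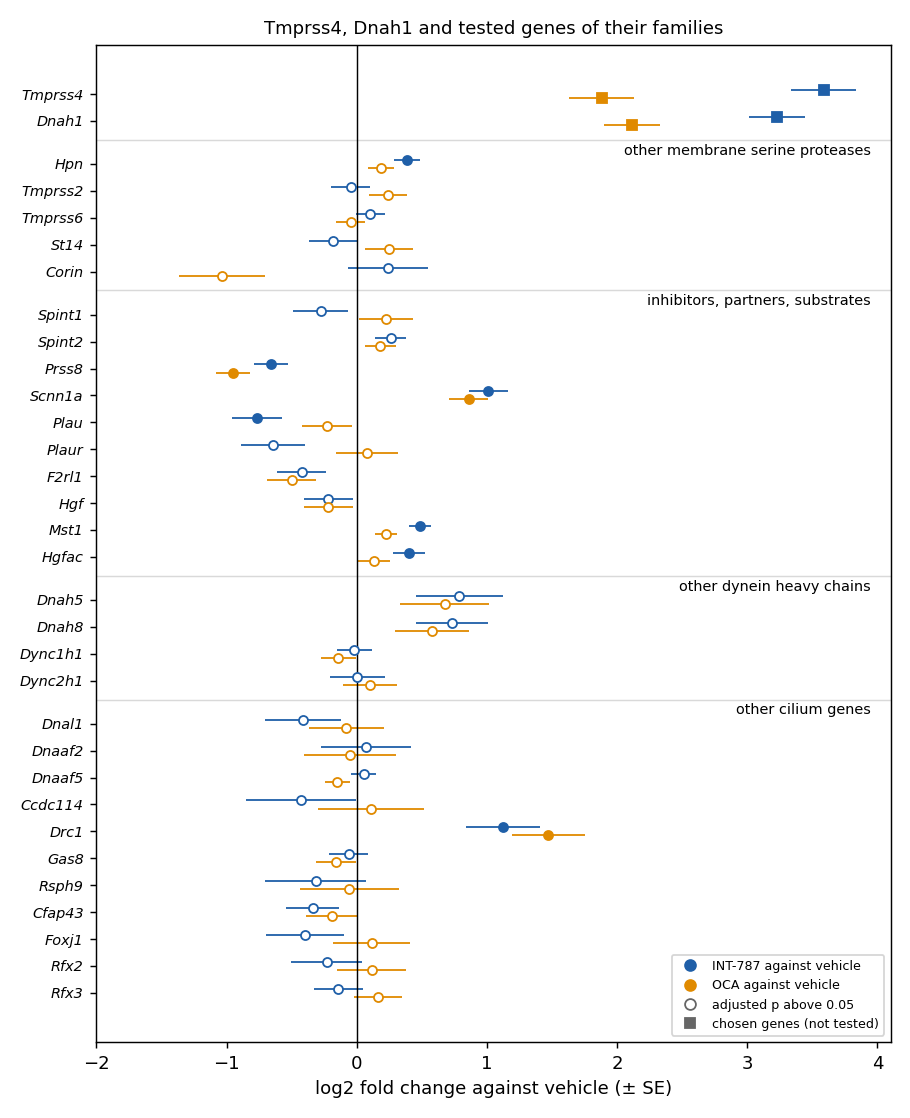
Log2 fold change against vehicle with its standard error for Tmprss4 and Dnah1 (squares, no test) and for tested genes of their families (circles, filled where edgeR's adjusted p is at most 0.05), with INT-787 in blue and OCA in orange. The pair lies between 1.88 and 3.59, right of the listed genes, of which Drc1 with OCA (1.47) and Scnn1a with INT-787 (1.01) are among the highest.

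Neither gene's exons overlapped those of a protein-coding neighbour. By GENCODE M21, *Tmprss4* shares 412 exonic bases (15.9%) with the antisense gene *Gm17099* on the opposite strand, and *Dnah1* shares 551 (4.22%) with the antisense gene *Gm35823*. Neither antisense gene was analysed here. The libraries were made with a stranded kit, and how the counting used strand is not given in the sources used here, so it is not known whether antisense reads are included. *BC049352*, a protein-coding gene on the opposite strand, overlaps the span of *Tmprss4* with 0 shared exonic bases. Vehicle replicate 5 held 28 of the 29 reads of the dynein gene *Dnah14* found in all mice, and its *Tmprss4* (2.52 CPM) and *Dnah1* (1.20 CPM) levels lay within those of the other vehicle mice.

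The tested neighbours had smaller log2 fold changes against vehicle than the pair. Because the pair was chosen by its steps, nothing is read from this difference. The nearest gene to *Tmprss4*, *BC049352*, did not pass the filter on low counts. Its means were 0.0503 CPM in vehicle, 0.134 in OCA and 0.320 in INT-787 mice. Around *Tmprss4*, 5 of the 10 nearest genes were tested, with log2 fold changes from -0.87 to 0.26 for INT-787 against vehicle. *Il10ra*, the receptor chain of the cytokine interleukin-10, fell by 0.55 (SE 0.15, adjusted p = 0.0111) with INT-787, and *Mpzl2*, an adhesion protein, rose by 0.35 (SE 0.10, adjusted p = 0.0306) with OCA. The call of *Mpzl2* was lost without any of OCA replicates 1, 5 and 9 or vehicle replicates 8 and 9, with an adjusted p of up to 0.0817. Between the agonists *Il10ra* differed by -0.48 (adjusted p = 0.0637), and passed with DESeq2, without vehicle replicates 5 and 6, and without any of INT-787 replicates 2 and 8, OCA replicate 3 or vehicle replicate 6 (adjusted p of 0.0249 to 0.0461). *Fxyd6* was lower with INT-787 than with OCA by 1.56 (SE 0.39, adjusted p = 0.0132), and without OCA replicate 8, where it reached 14.4 CPM, the log2 fold change was -0.92 and the adjusted p 0.0714. Against vehicle *Fxyd6* passed as lower with INT-787 without that mouse (-0.87, adjusted p = 0.0239) and with only the 2 groups compared (-0.87, adjusted p = 0.0199).

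Around *Dnah1*, 7 of the 10 nearest genes were tested, with log2 fold changes from -0.12 to 0.46 for INT-787 against vehicle and from -0.13 to 0.33 for OCA against vehicle. *Sh3bp5*, 35984 bases away, rose by 0.46 (SE 0.09, adjusted p = 0.000412) with INT-787, and passed with OCA without OCA replicate 8 (0.28, adjusted p = 0.0447). *Nisch*, 43429 bases away, rose with INT-787 by 0.28 (SE 0.09, adjusted p = 0.0267). The call of *Nisch* was lost without INT-787 replicate 1 or 2 or vehicle replicate 5, with an adjusted p of up to 0.058, and with upper-quartile factors, at 0.0759. *Bap1*, a deubiquitinase gene 431 bases from *Dnah1*, differed by 0.18 (SE 0.07, adjusted p = 0.0664), and passed without INT-787 replicate 1 or 8 or vehicle replicate 8 (adjusted p of 0.0392 to 0.0498). In all, 3 of 12 tested neighbours passed with INT-787 against vehicle, 1 with OCA against vehicle and 1 between the agonists, where 19.6%, 6.6% and 5.38% of all tested genes passed, with medians of 0.10, 0.13 and 0.01.

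**Figure D4:**
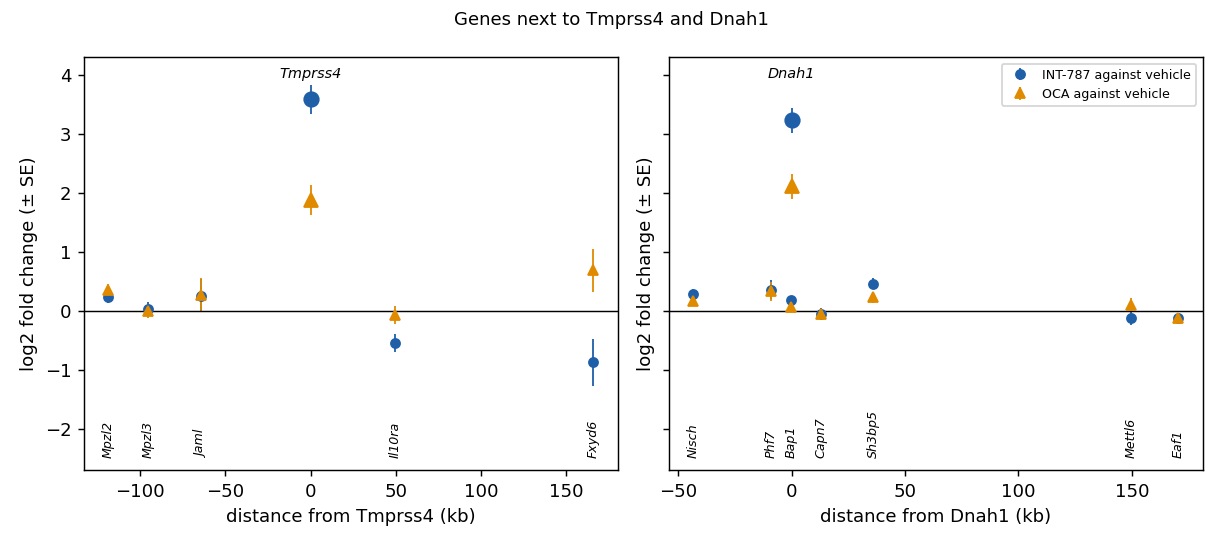
Log2 fold change against vehicle with its standard error for the tested neighbours, placed by distance in kb from Tmprss4 (left) or Dnah1 (right), with INT-787 as blue circles and OCA as orange triangles, and the chosen gene at distance 0. Tested neighbours lie between -0.87 and 0.69, while Tmprss4 and Dnah1 lie at 3.59 and 3.23 with INT-787. BC049352, below the filter on low counts, is not shown.

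The genes most like the pair over all 28 mice are given in rank order. By Pearson's r of log2(CPM + 0.5) among 11940 tested genes with a mean of at least 1 CPM, *Tmprss4* was closest to *Dnah1* (0.932), followed by *Akr1d1* (0.920), a reductase of bile acid synthesis, *Gsta2* (0.911), *Sqor* (0.910) and *Gsta4* (0.909). *Dnah1* was closest to *Sqor* (0.947), the mitochondrial sulfide oxidoreductase, then *Cryl1* (0.935), *Tmprss4* (0.932), *Etnppl* (0.929), a phospholyase of ethanolamine phosphate, and *Amdhd1* (0.923), an enzyme of histidine breakdown. These values share the libraries and the steps between groups, and they are a description over mice of 3 groups. Reads of *Gsta2*, a glutathione S-transferase with near-identical copies, are uncertain.

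All of these genes were more abundant in CPM than the pair and had smaller log2 fold changes against vehicle. *Etnppl* had a log2 fold change of 2.21 for INT-787 against vehicle and 1.62 for OCA against vehicle, with 29.9 ± 6.06 CPM in vehicle mice. *Akr1d1* had 1.89 and 1.01, and *Sqor* had 1.04 and 0.67, with 83.9 ± 15.2 and 137 ± 12.8 CPM in vehicle mice. *Gsta2* had 2.18 and 1.06, with 25.2 ± 6.18 CPM in vehicle mice. Between the agonists the log2 fold change of *Gsta2* was 1.12, as large as that of *Dnah1*, and those of *Akr1d1*, *Etnppl*, *Cryl1*, *Gsta4*, *Amdhd1* and *Sqor* were 0.88, 0.59, 0.56, 0.53, 0.49 and 0.37.

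Markers of liver cell types were read in the same mice. With INT-787 against vehicle, 12 of 33 tested markers of 37 changed, 3 upward and 9 downward, where 10.2% of all tested genes rose and 9.48% fell. Of 6 hepatocyte markers 3 rose with INT-787, *Alb*, *Cps1* and *Tat*, with log2 fold changes of 0.45, 0.99 and 0.75. The other 3, *Apoa1*, *Hnf4a* and *Ttr*, did not pass, at 0.23, 0.07 and -0.33. The sum of the 6 was 60848 to 133886 CPM in vehicle, 104176 to 196179 in OCA and 94215 to 166377 in INT-787 mice. *Alb* made up most of it, with means of 74111, 114239 and 100982 CPM. *Alb*, *Cps1* and *Tat* also rose with OCA, by 0.62, 0.89 and 0.61. They were the 3 of 33 tested markers that changed with OCA, where 4.15% of all tested genes rose and 2.45% fell. The markers that fell with INT-787 were *Cftr* of 6 cholangiocyte markers, 2 of 5 macrophage, 3 of 5 stellate cell and 2 of 5 endothelial markers, and *Cela1* of 6 intestinal and pancreatic markers, of which 3 were tested. The 3 tested of 4 lymphocyte markers did not pass in any comparison. Between the agonists 2 of the 33, *Cd68* and *Col1a1*, were lower with INT-787, where 3.19% of all tested genes were lower and 2.19% higher. Calls that were lost when 1 mouse was left out were *Alb* with INT-787 (INT-787 replicate 6), *Tat* with OCA (OCA replicate 9), and the endothelial *Cdh5* (6 mice) and *Pecam1* (17 mice) with INT-787.

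For cholangiocytes, which carry an immotile primary cilium, the summed markers were 86.6 to 131 CPM in vehicle, 73.6 to 224 in OCA and 67.2 to 111 in INT-787 mice. The highest sum was that of OCA replicate 8, the highest OCA mouse for *Tmprss4* and *Dnah1*. *Epcam* and *Krt19*, defining markers of these cells, differed by -0.31 (SE 0.20, adjusted p = 0.303) and -0.36 (SE 0.22, adjusted p = 0.28) with INT-787. The sums of 6 intestinal and pancreatic markers were 96.2 to 187 CPM in vehicle, 115 to 220 in OCA and 118 to 226 in INT-787 mice, and *Fabp2* made up most of them, with means of 122, 141 and 157 CPM. The gut genes *Cdx2* and *Muc2*, both below the filter, had means of 0.00825 and 0.154 CPM in vehicle, 0.148 and 0.318 in OCA and 0.0218 and 0.0773 in INT-787 mice. Summed stellate cell markers were 676 to 1169 CPM in vehicle, 645 to 1680 in OCA and 325 to 643 in INT-787 mice, with medians of 767, 862 and 517 CPM. *Col1a1*, a collagen gene, and *Dcn* made up most of these sums. The means of *Col1a1* were 411, 520 and 173 CPM, and those of *Dcn* were 311, 344 and 269 CPM. No marker was at 0 in all mice of a group. The part of hepatocyte or other cell shares in the *Tmprss4* and *Dnah1* levels was not tested.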

How the data were processed

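Liver RNA of 28 mice was sequenced from stranded polyadenylated libraries, and the authors aligned the reads to GRCm38 (mm10) with STAR, as the submitters' processing notes name them. The authors deposited raw counts, whole numbers of reads per Ensembl gene and mouse without normalization. The counting program and its use of strand are not given in the sources used here. Of 21935 genes, 21858 matched GENCODE M21, and 0 columns of values were left unused.

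Counts were analysed with R 4.3.3, edgeR 4.0.16 and DESeq2 1.42.0, and with Python 3.11.15, numpy 2.4.6, pandas 2.3.3, scipy 1.17.1 and matplotlib 3.10.9. Genes were filtered by filterByExpr on the 3 groups, which left 12580, scaled by TMM and fitted in 1 model of the 3 groups by glmQLFit of edgeR, with glmQLFTest as the quasi-likelihood test. P was adjusted over all tested genes by the Benjamini-Hochberg method, with a threshold of 0.05. Every adjusted p for a gene comes from this fit unless another tool, another setting or a left-out mouse is named. CPM used TMM-scaled totals, RPKM used merged exon lengths, and log2 levels used CPM + 0.5. Replicates are separate mice. Total counts of 1009593 to 22421506 per mouse set the counting intervals (95%, exact binomial), which cover counting error only. Correlations within groups used exact permutation for 9 mice and 100000 resamples for 10. On simulated data for INT-787 against vehicle over 12580 genes, 188 of 200 planted 2-fold changes were called (94%), with 12 false calls. The simulated counts had 1 mean per gene apart from the planted changes. They used the fitted negative binomial dispersion without the extra spread per gene that the test estimates. The share called in the real mice may therefore be lower.

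*Tmprss4*, *Dnah1* and all gene lists were chosen with earlier results of these data known. Named genes are the pair, the listed genes that passed the test in a comparison (up to 10 per list and comparison) or that describe a group, the 5 nearest genes on each side, and the 5 genes most like each of the pair by r. A gene that this rule names is not reported here, and it remains in all counts and tests of its list. Vehicle replicate 6 was shallow and vehicle replicate 5 was doubted from those earlier results, so results were also computed without both. Alternatives were DESeq2, DESeq2 size factors, upper-quartile factors, library totals, no filter, only the 2 groups compared, the replicate number as a block, and each of 28 mice left out in turn. The order with library totals or upper-quartile factors the results without OCA replicate 8 and a block for each run of close sample numbers were added after seeing the data. Promoter sequences are from RefSeq (GRCm38.p6).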

Additional observations from a re-analysis of the deposited data

Results flagged for a closer look

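In groups of 9 or 10 mice, a mouse was singled out where its gap to the nearest other mouse was large for the range of the group (Dixon's 95% critical value). This held for 6 of 72 groups examined, and chance alone gives about 1 in 20. Neither *Tmprss4* nor *Dnah1* had such a mouse in any group. Vehicle replicate 6 had 1009593 total counts, far below the other vehicle mice. *Fxyd6*, a neighbour of *Tmprss4*, was at 14.4 CPM in OCA replicate 8, with the next OCA mouse at 4.69 CPM, and at 6.44 CPM in vehicle replicate 6, with the next vehicle mouse at 3.22 CPM. *Corin* was at 1.76 CPM in OCA replicate 5, with the next at 1.10 CPM. *Pltp* was at 285 CPM in vehicle replicate 10 (next 206 CPM). *Slc27a5* was low in vehicle replicate 1, at 425 CPM, with the next vehicle mouse at 557 CPM.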

How the results depend on the processing

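The log2 fold changes of *Tmprss4* and *Dnah1* kept their direction under every alternative run. Over 28 fits with 1 mouse left out, *Tmprss4* ranged from 3.49 to 3.69 for INT-787 against vehicle, from 1.68 to 1.99 for OCA against vehicle and from 1.61 to 1.90 for INT-787 against OCA, and *Dnah1* from 3.13 to 3.36, from 1.98 to 2.24 and from 1.01 to 1.25. Pairs of mice in order between the agonists fell to 97.5% (*Tmprss4*) and 98.8% (*Dnah1*) with library totals and to 98.8% for both with upper-quartile factors.

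Counts of listed genes that passed moved as follows, and the cause was not tested. For other membrane proteases with OCA against vehicle, 0 became 1 (*Corin*) with DESeq2, with only the 2 groups compared and with upper-quartile factors, and was 0 to 1 with 1 mouse left out. For protease partners between the agonists, 0 became 1 with DESeq2 and 1 without vehicle replicates 5 and 6 (*Plaur*), and was 0 to 3 with 1 mouse left out. For dynein chains against vehicle, 0 became 1 for INT-787 and 1 for OCA without the filter, through *Dnah14* and its 28 reads in 1 vehicle mouse, and the count for INT-787 was 0 to 1 with 1 mouse left out. For FXR-induced genes between the agonists, 1 became 3 with DESeq2 (*Slc51b*, *Abcb4*) and 2 with DESeq2 size factors (*Slc51b*), and was 0 to 3 with 1 mouse left out. For neighbours, 1 became 0 with OCA against vehicle without vehicle replicates 5 and 6 (0 to 2 with 1 mouse left out), and between the agonists 1 became 2 with DESeq2 and 2 without those vehicle mice (0 to 2 with 1 mouse left out).

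Over 27 same-numbered pairs the correlation of deviations ran from -0.25 to 0.472, with 13 above 0.1. Sample numbers in the labels fall into sets of neighbours, whose meaning the labels do not give, and replicate numbers are out of step with these sets from replicate 4 on. Over 25 pairs of mice of 1 set the correlation ran from -0.21 to 0.472, with a median of 0.121 and 15 above 0.1, so neither numbering paired every couple of mice. With the set as a block, *Tmprss4* was at 3.62, 1.78 and 1.84 and *Dnah1* at 3.31, 2.07 and 1.23, in the order of comparisons above, and the count became 0 for neighbours with OCA, and 1 for protease partners (*Plaur*), 2 for FXR-induced genes (*Slc51b* added) and 0 for neighbours between the agonists. The calls of *Fxyd6* between the agonists (adjusted p = 0.0575) and *Mpzl2* with OCA were then lost. With the replicate number as a block, the count became 1 for membrane proteases and 4 for protease partners with OCA against vehicle, and 1 for protease partners, 3 for FXR-induced genes and 0 for neighbours between the agonists. With the block the calls of *Abcc2* with INT-787, *Fxyd6* between the agonists (adjusted p = 0.0514) and *Tat* with OCA were lost. *Alb* with INT-787 was lost without the filter and with upper-quartile factors (adjusted p of up to 0.0517), *Pecam1* with INT-787 without the filter, with the set as a block and without vehicle replicates 5 and 6 (up to 0.0641), and without those mice also *Tat* (up to 0.0636) and *Mpzl2* (0.0537) with OCA.

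The r of *Tmprss4* and *Slc51b* in vehicle mice, -0.10, became 0.012 without vehicle replicates 5 and 6, and that of *Dnah1* and *Slc51b*, 0.016, became -0.066 with library totals and -0.20 without those mice. The r of the pair in OCA mice was 0.823 without OCA replicate 8. Depth limits the vehicle levels of both genes.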

Other observations

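*BC049352*, the protein-coding gene on the opposite strand that overlaps the span of *Tmprss4* without sharing exonic bases, held 0 to 3 reads per vehicle mouse, 0 to 6 per OCA mouse and 2 to 9 per INT-787 mouse. Its means were 0.0503 ± 0.0588, 0.134 ± 0.126 and 0.320 ± 0.144 CPM (SD, n = 10, 9 and 9), and the reads summed to 8, 20 and 46. It did not pass the filter on low counts. Without that filter edgeR gave a log2 fold change of 2.29 for INT-787 against vehicle (adjusted p = 0.0045). The gene was named after its values were seen, and whether its reads come from the *Tmprss4* locus transcribed on the other strand was not tested.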
